A study of Mus musculus with 4 samples.

Results

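The genes described here are 9 members of the tumour necrosis factor (TNF) system: the ligands Tnfsf12 (TWEAK), Tnf and Tnfsf10 (TRAIL), and the receptors Tnfrsf12a (Fn14), Tnfrsf1a, Tnfrsf1b, Fas, Tnfrsf10b and Ltbr. They were chosen by name, among 31933 genes with a count in at least 1 cell, and all 9 were found. Their values come from single-cell RNA sequencing of mouse liver cells of genotype Sox9EGFP, a line named for a fluorescent reporter of Sox9, a transcription factor of biliary cells. The labels call the cells biliary epithelial cells (BECs), which line the bile ducts. There were 4 libraries, all taken 7 days after surgery: 2 after a sham operation and 2 after bile duct ligation (BDL), in which the duct is tied so that bile backs up into the liver. The labels give no age, sex, strain background or sort gate, and do not say in words that each library is a separate animal, so the p-values measure only the spread between libraries, n = 2 per group.

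Ligands of the TNF family are made as membrane proteins, many of which can be shed, and act on trimeric receptors. Receptors with a cytoplasmic death domain, such as Tnfrsf1a, Fas and Tnfrsf10b, can assemble caspase-8 complexes or switch on NF-kB, while Tnfrsf12a, Tnfrsf1b and Ltbr lack that domain and recruit TRAF adaptors. In the liver, Tnfrsf12a and its ligand TWEAK are known for the growth of bile duct cells after injury, and Fas and the TRAIL receptor for the death of bile-loaded cells.

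The libraries held 2863 and 3194 cells after sham surgery and 2089 and 4065 after BDL, with 10024577 to 33809650 transcripts counted as unique molecular identifiers (UMIs). Depth moved with the groups: the median cell had 3260 and 2610 UMIs after sham surgery and 7058 and 7793 after BDL, so levels are given as CPM, the count of a gene scaled to the same library total. The cell tables carry group names of their own, which name sham replicate 2 as BDL and BDL replicate 2 as sham. Groups here follow the sample labels. BDL replicate 2 also stood apart in the X-inactivation transcript Xist, at 1918 CPM against 7.72 to 10.3 in the other 3 libraries. This difference is not balanced between the groups, and its part in the results was not tested. Clusters that met the biliary markers, called BEC-like, held 81.7% to 94.8% of each library, and the summed level of the 11 biliary markers was 11610 to 12558 CPM in them. The BEC-like cells of both libraries labelled sham fell mostly into clusters 0, 2, 4 and 6. Those of both libraries labelled BDL fell mostly into clusters 1, 3, 5, 7, 8, 10 and 12. The class was therefore compared as a whole and again within subclusters found without the differing genes. The hepatocyte markers summed to 1249 and 1282 CPM in the sham BEC-like cells and to 144 and 111 CPM in those of BDL, and 1 sham cluster, cluster 2, had Alb among its 10 leading genes, at 1400.3 and 1563 CPM. Alb was not particular to it, at 809 and 1121 CPM in sham cluster 0, 1132 and 1288 CPM in sham cluster 6 and 234 and 248 CPM in sham cluster 4. In the same sums, with the values of sham replicates 1 and 2 and then BDL replicates 1 and 2, the mesothelial markers were at 333, 277, 93.9 and 101 CPM. The mesenchymal markers were at 108, 108, 18.9 and 32.3 CPM and the endothelial markers at 52.9, 56.0, 27.0 and 14.7 CPM. All 4 lists were thus lower in both BDL libraries, and their part in the results was not tested beyond leaving cluster 2 out.

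The 250 bases before the start of 4 members are shown because the ligands Tnf and Tnfsf10 and the receptor Tnfrsf1b moved together in BEC-like cells while Tnfrsf12a went the other way. The sequences are from RefSeq, whose table has GRCm38.p6 coordinates, while the deposited counts were made on GRCm39. They are written 5′ to 3′ on the gene's strand, and capitals mark matches on either strand to the letters TATAAA or GGGCGG (a GC box).
Tnf (GRCm38.p6, chr17:35202008-35202257, minus strand): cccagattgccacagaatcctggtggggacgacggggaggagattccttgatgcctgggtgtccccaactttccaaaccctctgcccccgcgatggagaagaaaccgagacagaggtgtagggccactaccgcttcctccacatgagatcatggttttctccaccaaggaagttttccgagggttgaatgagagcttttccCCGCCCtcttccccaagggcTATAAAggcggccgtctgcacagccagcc
Tnfsf10 (GRCm38.p6, chr3:27316827-27317076, plus strand): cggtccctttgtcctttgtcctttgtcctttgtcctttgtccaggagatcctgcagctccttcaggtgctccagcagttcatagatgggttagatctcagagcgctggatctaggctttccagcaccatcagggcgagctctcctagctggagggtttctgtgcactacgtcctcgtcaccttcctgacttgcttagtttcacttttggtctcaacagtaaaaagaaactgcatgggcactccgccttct
Tnfrsf1b (GRCm38.p6, chr4:145246871-145247120, minus strand): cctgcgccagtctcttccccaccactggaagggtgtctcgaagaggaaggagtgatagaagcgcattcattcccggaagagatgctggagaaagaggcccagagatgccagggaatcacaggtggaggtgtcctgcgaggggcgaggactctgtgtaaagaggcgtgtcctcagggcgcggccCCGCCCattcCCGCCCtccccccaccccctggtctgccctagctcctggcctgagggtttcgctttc
Tnfrsf12a (GRCm38.p6, chr17:23677450-23677699, minus strand): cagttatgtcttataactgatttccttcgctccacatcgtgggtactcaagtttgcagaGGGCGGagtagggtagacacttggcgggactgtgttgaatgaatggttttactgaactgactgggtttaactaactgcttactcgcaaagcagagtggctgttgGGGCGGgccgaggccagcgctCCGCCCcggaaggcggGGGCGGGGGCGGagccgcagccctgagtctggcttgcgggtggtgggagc

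The table held 7 of the 9 members, without Tnfsf12 and Tnfrsf10b. TATAAA was found in 1 of these 7 promoters, that of Tnf, with its first base 29 bases before the start, and in 12.4% of the 32851 promoters of the same length. GC boxes were found in 5 of the 7 and in 32.7% of all, with 5 matches in Tnfrsf12a, 2 in Tnfrsf1b and none in Tnfsf10 or Tnfrsf1a. The AP-1 letters TGANTCA were found in 1 of the 7, that of Fas, and in 6.75% of all. The NF-kB consensus was found in none of the 7 and in 7.25% of all. All 4 were searched on both strands. These matches describe letters in a short window and say nothing of binding.

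In BEC-like cells, Tnf, its receptor Tnfrsf1b, Tnfsf10 and its receptor Tnfrsf10b were higher after BDL, and Tnfrsf12a was lower by a small step. Tnfsf12, Tnfrsf1a, Fas and Ltbr did not pass the test. That is 4 members higher, 1 lower and 4 not passed of 9 tested, beside 27% of all 16057 genes tested in that class that were called in either direction (14.2% higher and 12.8% lower). The test was edgeR's quasi-likelihood test on counts summed per library, with Benjamini-Hochberg adjustment over all genes tested. Levels below are CPM scaled by edgeR's TMM factors unless said otherwise. Fewer expressing cells and less RNA per cell cannot be told apart in these sums, which is why shares of cells follow.

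Among the ligands, Tnf, the founding inflammatory cytokine of the family, was at 11.1 and 7.84 CPM after sham surgery and at 73.2 and 54.0 CPM after BDL. Both BDL libraries stood far above both sham libraries, with group means of 9.48 ± 2.33 and 63.6 ± 13.6 CPM (SD, n = 2 each). The log2 fold change was 2.73 (SE 0.23, edgeR adjusted p = 0.00073). Tnfsf10, the TRAIL ligand that engages Tnfrsf10b, was at 12.2 and 15.2 CPM after sham surgery and at 37.9 and 47.7 CPM after BDL. The groups did not overlap, and the log2 fold change was 1.65 (SE 0.18, edgeR adjusted p = 0.00174). Tnfsf12, the TWEAK ligand of Tnfrsf12a, was scarce in every library, at 8.03 and 6.47 CPM after sham surgery and 4.41 and 4.42 CPM after BDL. Both BDL values lay below both sham values, but the difference of -0.72 on the log2 scale (SE 0.24) did not pass (edgeR adjusted p = 0.0637). RefSeq places Tnfsf12 over the antisense gene Tnfsf13os and a read-through transcript, counted with 99 and 40 UMIs in BEC-like cells, and the strand used in counting is not given in the sources used here.

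Of the receptors for TNF, Tnfrsf1b, which lacks a death domain, was at 18.9 and 28.7 CPM after sham surgery and 99.3 and 119.9 CPM after BDL. Both BDL libraries were above both sham libraries, and the log2 fold change was 2.21 (SE 0.21, edgeR adjusted p = 0.00111). Tnfrsf1a, the receptor with a death domain, was at 31.9 and 27.9 CPM after sham surgery and 36.5 and 45.1 CPM after BDL. The BDL values were the higher ones, but by little, and the log2 fold change of 0.45 (SE 0.16) did not pass (edgeR adjusted p = 0.0739). It passed without BDL replicate 1 (0.62, edgeR adjusted p = 0.00416).

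The receptor Tnfrsf10b, through which TRAIL can start apoptosis, was at 19.0 and 23.9 CPM after sham surgery and 52.3 and 74.6 CPM after BDL. The groups were apart, with a log2 fold change of 1.57 (SE 0.21, edgeR adjusted p = 0.00335). Fas, the receptor for Fas ligand, was at 13.8 and 16.8 CPM after sham surgery and 17.4 and 16.5 CPM after BDL. These values overlapped, and the log2 fold change was 0.15 (SE 0.17, edgeR adjusted p = 0.542). Ltbr, the receptor for the lymphotoxin heterotrimer, was at 23.2 and 25 CPM and at 25.4 and 31.2 CPM, with a log2 fold change of 0.24 (SE 0.16, edgeR adjusted p = 0.294).

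Tnfrsf12a, the TWEAK receptor, was at 341 and 300.1 CPM after sham surgery and 253 and 227 CPM after BDL. Both BDL libraries were lower, with means of 321 ± 29.0 and 240.3 ± 18.2 CPM (SD, n = 2 each). The log2 fold change was -0.42 (SE 0.12, edgeR adjusted p = 0.0473), just inside the threshold. The call was lost with DESeq2 (-0.34, adjusted p = 0.0966) and without sham replicate 1, sham replicate 2 or BDL replicate 2 (edgeR adjusted p = 0.248, 0.109 and 0.133), while the direction was the same in each of these. Tnfrsf12a overlaps Hcfc1r1 in RefSeq, which had 233 to 525 UMIs per library in BEC-like cells against 2413 to 7259 for Tnfrsf12a. Hcfc1r1 was at 27.2 and 27.6 CPM of the total after sham surgery and 16.2 and 16.3 CPM after BDL, and its part in the difference was not tested.

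**Figure D1:**
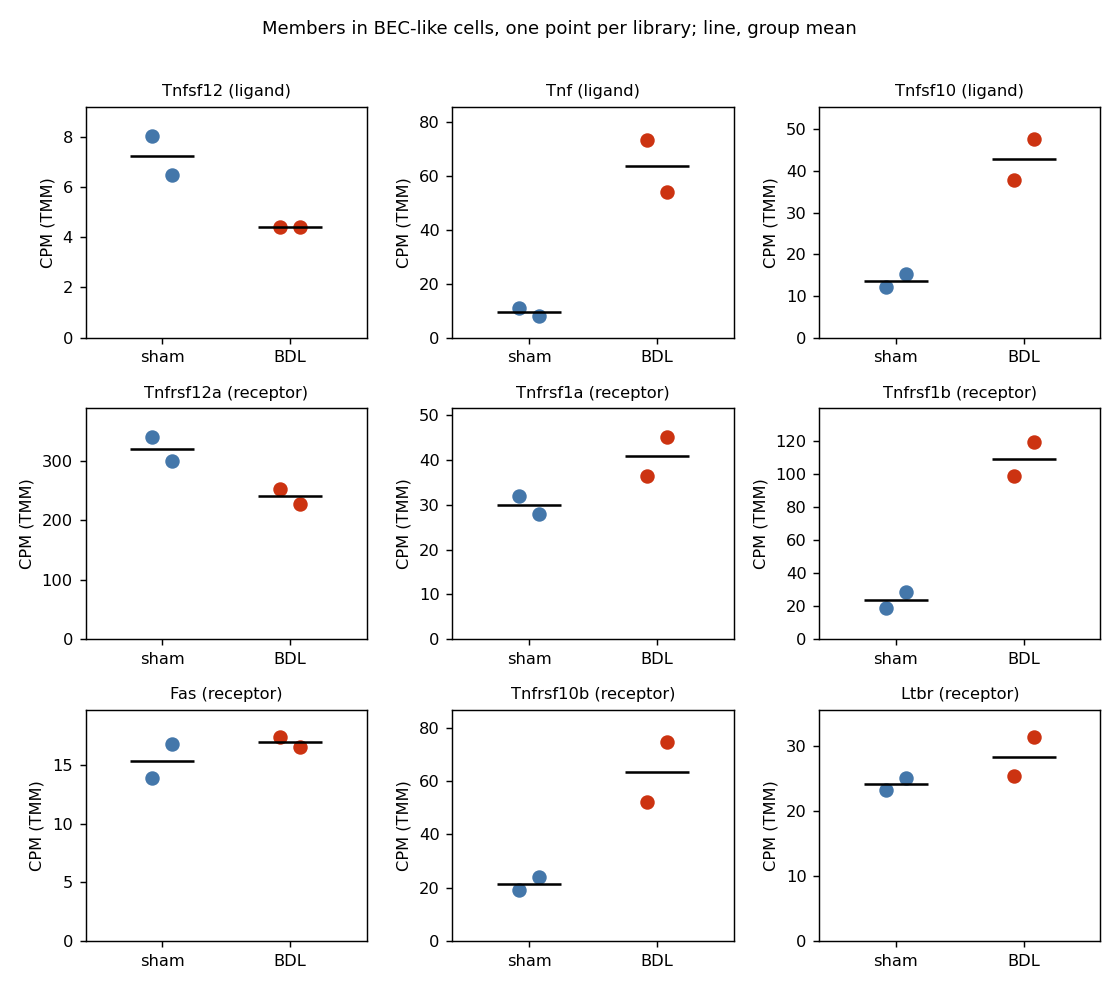
Level of each member in BEC-like cells, in CPM scaled by TMM factors on a linear axis from 0, with 1 point per library and a line at the group mean; each panel has its own axis. Tnf, Tnfsf10, Tnfrsf1b and Tnfrsf10b show BDL points well above the sham points, Tnfrsf12a shows them below, and Fas overlaps.

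Macrophages are a known source of Tnf, so their markers were followed in the same BEC-like sums. The 12 macrophage markers summed to 45.0 and 42.8 CPM after sham surgery and 42.9 and 45.1 CPM after BDL. Most of the sum was Csf1r and Cd68, which went opposite ways, at 29.5 and 11 CPM over all sham cells and 36.1 and 5.31 CPM over all BDL cells. Of these, 9 were under 1 CPM in all 4 libraries, among them Adgre1, Clec4f, C1qa and Lyz2, and of the 3 tested none was higher and 1 was lower. Without the sham cluster that had Alb among its leading genes, an alternative added after seeing the data, Tnf had a log2 fold change of 2.45, Tnfrsf1b of 1.92, Tnfrsf10b of 1.43 and Tnfsf10 of 1.44, and each passed. That leaves in the other sham clusters with Alb. The sublibrary is a technical batch, since all 4 libraries are spread over the same 8. Fits of sublibraries taken alone reuse these 4 libraries and add no replicates. Tnf and Tnfrsf1b passed in 8 of 8 sublibraries taken alone, with log2 fold changes of 2.33 to 4.07 and 1.72 to 2.59. Tnfsf10 passed in 7 of the 7 in which it was tested, Tnfrsf10b in 7 of 8 and Tnfrsf12a in 2 of 8.

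Shares of cells were compared after each cell was thinned to 1000 UMIs, which left out 85 and 108 of the sham cells and none of the BDL cells. A UMI of Tnf was then seen in 1.30% and 0.64% of sham BEC-like cells and in 5.88% and 4.64% of those of BDL. Of mesenchymal-like cells thinned alike, none had one after BDL, in 71 and 132 cells, where the exact 95% binomial intervals reach up to 5.06% and 2.76%. Without thinning, 4 of 132 (3.03%) had one in BDL replicate 2, and BDL replicate 1 and sham replicate 2 each held 1 UMI of Tnf in this class. Tnfrsf1b was seen in 1.81% and 2.57% of sham cells and 7.75% and 10.1% of BDL cells, Tnfrsf10b in 2.01% and 1.97% against 4.16% and 7.09%, and Tnfsf10 in 1.38% and 1.16% against 2.84% and 4.30%. For these 4 genes both BDL libraries were above both sham libraries. The share of all genes for which this was so after thinning was not worked out. Tnfrsf12a was seen in 30.7% and 25.3% of sham cells and in 21.1% and 21.3% of BDL cells. The exact two-sided permutation test gave p = 0.33 for each of these 5 genes, the smallest that 2 libraries against 2 allow. Without thinning, when the BDL cells are deeper, the Tnf shares were 3.39%, 2.04%, 29.8% and 25.9%. Tnfrsf12a then ran the other way, at 60.8% and 50.6% against 75.5% and 76.4%.

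**Figure D2:**
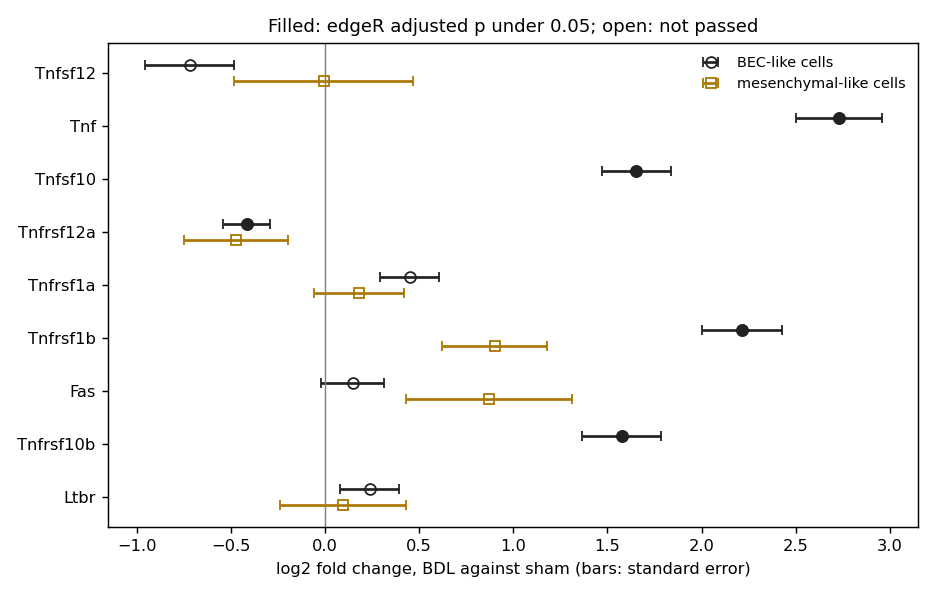
Log2 fold change of each member, BDL against sham, in BEC-like (circles) and mesenchymal-like cells (squares), with bars for the standard error and filled symbols for an edgeR adjusted p under 0.05. In BEC-like cells Tnf (2.73) and Tnfrsf1b (2.21) lie farthest right and Tnfrsf12a (-0.42) left of 0, and no square is filled; members without a square were not tested in mesenchymal-like cells.

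Within BEC-like cells, 6 subclusters were found with 6543 genes left out, namely the members and the genes at an unadjusted p under 0.05 between the groups. Of these, 5 had at least 30 cells in every library. Both BDL libraries were above both sham libraries in all 5 for Tnf, Tnfrsf1b and Tnfrsf10b, which was so for 5.95% of all genes tested. Counting intervals overlapped for Tnfrsf1b in subcluster 2 (7.25 to 19.9 CPM in BDL replicate 1 against 5.87 to 13.6 CPM in sham replicate 1). For Tnfrsf10b they overlapped in subcluster 4 (43.8 to 68.9 CPM in BDL replicate 1 against 33.6 to 56.6 CPM in sham replicate 1). For Tnfsf10 both BDL libraries were above both sham libraries in 4 of the 5, and the share of all genes in at least 4 was not worked out. Its counting intervals overlapped in subcluster 3 (8.22 to 14.4 CPM in BDL replicate 2 against 6.48 to 14.1 CPM in sham replicate 1). They also overlapped in subcluster 5 (12.2 to 23.2 CPM in BDL replicate 1 against 6.08 to 15.8 CPM in sham replicate 1). Tnfrsf12a was lower in both BDL libraries in 4 of the 5, as were 10.7% of all genes in at least 4. Ltbr overlapped in all 5, and Tnfrsf1a in 4.

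The sham cells themselves were uneven. Subcluster 4, led by Anxa1 and Dmbt1, held 14.7% and 23.7% of sham BEC-like cells and 9.83% and 14.7% of those of BDL. In sham livers it had 24.2 and 19.7 CPM of Tnf (of its library total, as in all subcluster values), while subcluster 2, led by Klf2 and Fos, had 5.73 and 2.48 CPM. Tnfrsf1b was likewise at 64.5 and 69.6 CPM in sham cells of subcluster 4 and at 9.17 and 7.12 CPM in subcluster 2. Tnfrsf10b was at 44.0 and 43.0 CPM against 14.1 and 13.9 CPM, and Tnfsf10 at 32.3 and 33.4 CPM against 5.73 and 7.43 CPM. So for these 4 genes the sham cells of subcluster 4 were above those of subcluster 2 in both libraries. The same order held for Tnfrsf1a, Fas, Ltbr and Tnfrsf12a, so it was not particular to the 4. Tnfsf12 was the exception, at 7.33 and 3.66 CPM in subcluster 4 against 8.40 and 7.74 CPM in subcluster 2. How many of all genes share this order was not worked out. After BDL, Tnf in subcluster 4 was at 54.6 and 58.2 CPM. The ratio of group means there was 2.57 for Tnf, 1.81 for Tnfrsf1b and 1.59 for Tnfrsf10b, for each the smallest among the 5 subclusters. Tnfsf10 in subcluster 4 was at 23.8 and 23.3 CPM after BDL, below both sham values, although the counting intervals overlapped (16.5 to 33.2 CPM in BDL replicate 1 against 23.4 to 43.3 CPM in sham replicate 1).

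Subcluster 1, led by Nos2, the inducible nitric oxide synthase, was mostly a BDL population, with 6.93% and 3.08% of sham and 32.4% and 55.3% of BDL BEC-like cells. After BDL it had the highest Tnfsf10 of the 5 subclusters, at 70.4 and 67.2 CPM against 19.6 and 21.1 CPM in its sham cells. Its Tnfrsf1b was also the highest of the 5 after BDL, at 160.3 and 146 CPM, while its sham cells, at 35.4 and 35.9 CPM, were below those of subcluster 4. Tnf was not highest there, at 73.7 and 52.0 CPM after BDL. Its sham cells differed between libraries, at 30.5 CPM (31 UMIs) in sham replicate 1 and 6.34 CPM (3 UMIs) in sham replicate 2. Subcluster 3, led by Ankrd1 and Arc, had 89.0 and 65.8 CPM of Tnf after BDL and 10.1 and 5.12 CPM in its sham cells. The same subcluster had the highest Tnfrsf12a, at 485 and 418 CPM after sham surgery and 327 and 322 CPM after BDL. In subcluster 5, led by Ryr1, Tnf went from 7 UMIs and 1 UMI after sham surgery (3.72 and 1.03 CPM) to 162 and 74 UMIs after BDL (69.0 and 60.0 CPM). Tnfrsf12a in that subcluster was the exception to its lower level after BDL, at 204 and 184 CPM in sham and 214 and 232 CPM in BDL libraries.

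**Figure D3:**
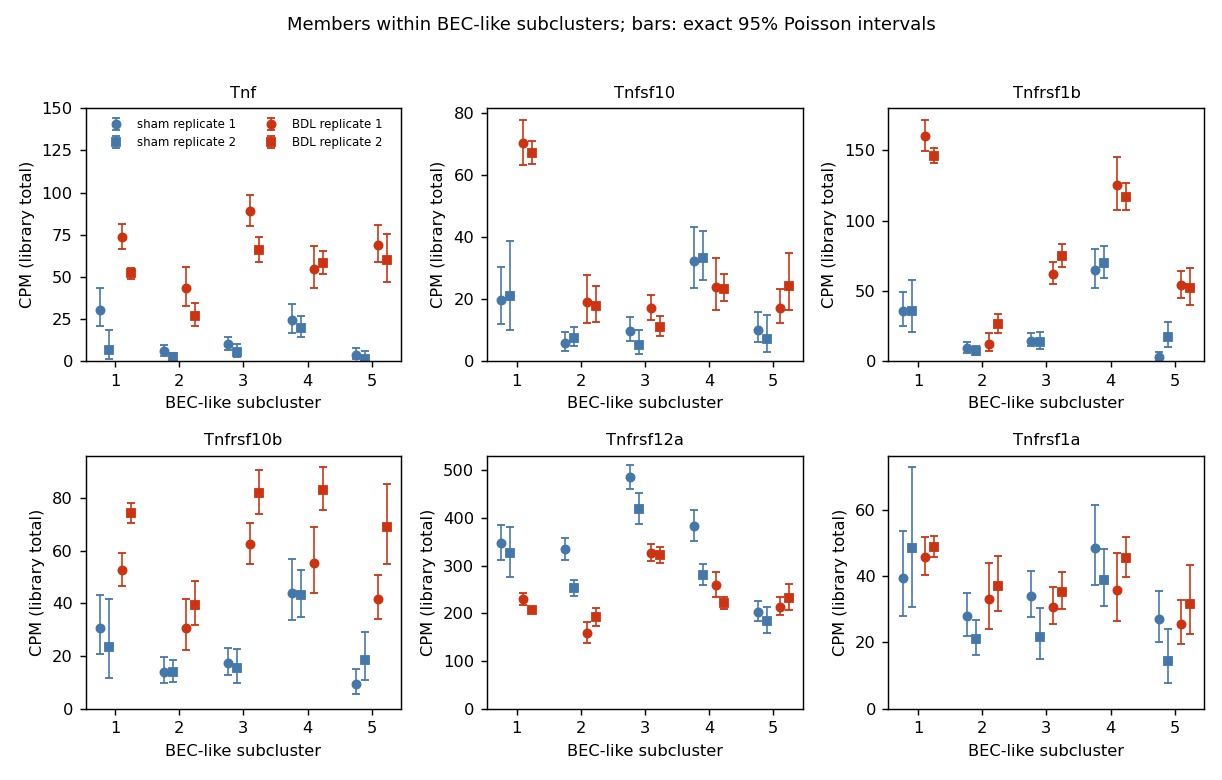
Level of 6 members in the 5 larger BEC-like subclusters, in CPM of the library's total in that subcluster, with 1 point per library and exact 95% Poisson intervals, which cover counting error only. Tnf is higher in both BDL libraries in each of the 5 subclusters, and Tnfsf10 has its highest points in BDL cells of subcluster 1 (70.4 and 67.2 CPM).

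In mesenchymal-like cells, the collagen-making and stellate-like cells of the liver, 6 of the 9 members had enough counts to test and none passed, beside 6.45% of all 8801 genes tested in that class. At an unadjusted p under 0.05 there was 1 of the 6, beside 1991 of all 8801, and DESeq2 called none. Tnfrsf1b was at 54.4 and 68.1 CPM after sham surgery and 136 and 98.2 CPM after BDL. Both BDL libraries were higher, and the log2 fold change was 0.90 (SE 0.28, edgeR adjusted p = 0.0914). Fas was at 39.1 and 15.3 CPM against 52.9 and 43.3 CPM (0.87, SE 0.44, edgeR adjusted p = 0.283). Tnfrsf12a was at 85.1 and 86.0 CPM against 48.8 and 71.2 CPM (-0.47, SE 0.28, edgeR adjusted p = 0.361). The makeup of the class moved with the groups: its cluster 9, with Lrat and Colec10, was 56.4% and 75.5% of it after sham surgery and 38.0% and 16.7% after BDL, and cluster 11 the rest. In cluster 11 alone, Tnfrsf1b was at 42.7 and 20.5 CPM after sham surgery and 131 and 102 CPM after BDL, and the groups did not overlap. In cluster 9 they overlapped, at 66.3 and 85.2 CPM against 129 and 76.6 CPM. Tnf, Tnfrsf10b and Tnfsf10 had few UMIs in the class and were not tested, with 0, 1, 1 and 9 UMIs of Tnf in sham replicates 1 and 2 and BDL replicates 1 and 2.

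The difference in the BDL effect between BEC-like and mesenchymal-like cells was tested itself, with the library as a block, and 5.9% of 15321 genes were called. Among the members, Tnfrsf1b was the only one called. Its effect was larger in BEC-like cells by 1.32 on the log2 scale (SE 0.31, edgeR adjusted p = 0.0113). The call was lost without sham replicate 1, sham replicate 2 or BDL replicate 2, where the difference was 1.14, 1.4 and 0.94 (edgeR adjusted p = 0.0878, 0.0798 and 0.236). For Tnf the difference was -0.78 with a standard error of 1.43, on 0 to 9 UMIs per mesenchymal-like sum.

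The makeup of the endothelial-like class moved with the groups as well: its cluster 17, led by Ccl21a and Mmrn1, held 3, 3, 3 and 13 of the 40, 122, 19 and 34 cells in sham replicates 1 and 2 and BDL replicates 1 and 2, and cluster 13 the rest. Its part in the values was not tested. Of the members only Tnfrsf1a could be tested in this class, beside 1.52% of 2037 genes called. It was at 166 and 158 CPM after sham surgery and 198 and 202 CPM after BDL, with a log2 fold change of 0.31 (SE 0.45) that did not pass by edgeR (adjusted p = 0.797); no member was at an unadjusted p under 0.05, and DESeq2 gave no adjusted p for it. Tnfsf10 was found in each endothelial-like sum, with 4, 6, 2 and 6 UMIs. Macrophage-like cells were few, at 6 to 21 per library. Their Tnfrsf1b was at 235 and 198 CPM of the library's total in the sham sums and 178 and 532 CPM in the BDL sums, from 5 to 33 UMIs, and the groups overlapped. Their Tnf rested on 2, 1, 0 and 7 UMIs, and Tnfsf10 was at 0 in all 4.

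Hepatocyte-like cells numbered 2, 32, 7 and 35. Their Tnfrsf12a was at 55.6 CPM of the total in sham replicate 2, from 7 UMIs, and at 205 and 258 CPM after BDL, from 14 and 65 UMIs. Sham replicate 1 held only 7630 UMIs in this class and none of the member. Tnfrsf1a and Tnfrsf1b were each at 7.94 CPM, from 1 UMI, in sham replicate 2 and at 119 CPM, from 30 UMIs, in BDL replicate 2. In BDL replicate 1 they were at 58.6 CPM, from 4 UMIs, and 29.3 CPM, from 2 UMIs. The summed biliary markers in the hepatocyte-like cells moved alongside, at 655 and 2317 CPM in the sham sums and 11573 and 10433 CPM in the BDL sums, close to their level in BEC-like cells. Their part in these levels was not tested.

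Other genes of the pathway were taken from 6 lists and read in the same BEC-like fit, where the median log2 fold change over all genes tested was -0.03, and where 14.2% of the 16057 genes tested were higher and 12.8% lower. Of 15 other ligands of the family, 6 were tested, 2 were higher and 1 lower, with a median of 0.20. Ltb, the lymphotoxin beta chain and the neighbour of Tnf on chromosome 17, was at 7.36 and 5.47 CPM after sham surgery and 39.9 and 38.0 CPM after BDL. Tnfsf15 also rose (log2 fold change 2.13, edgeR adjusted p = 0.00977), and Eda, the ectodysplasin ligand, fell by 1.44 on the log2 scale (edgeR adjusted p = 0.000915).

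Of 22 other receptors of the family, 13 were tested, 6 were higher and 1 lower, with a median of 1.07, beside the 14.2% and 12.8% of all genes. Tnfrsf23, a mouse decoy receptor for TRAIL, was at 7.65 and 6.09 CPM after sham surgery and 19.5 and 38.3 CPM after BDL. It resembles its neighbour Tnfrsf22, so reads could be split between them. Eda2r, a second ectodysplasin receptor, had a log2 fold change of 2.28 (edgeR adjusted p = 0.0204) and Tnfrsf11a, the receptor RANK, of 1.13 (edgeR adjusted p = 0.00798). Tnfrsf19 (TROY) fell by 1.69 on the log2 scale (edgeR adjusted p = 0.00293).

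The receptor complex and its ubiquitin control were tested in full, with 8 of 19 genes higher, 1 lower and a median of 0.38, where 14.2% of all genes were higher and 12.8% lower. Tnfaip3 (A20), which removes ubiquitin chains and dampens NF-kB signalling, was at 152 and 175 CPM after sham surgery and 604 and 680.4 CPM after BDL, and all 4 values were apart by group (log2 fold change 1.97, edgeR adjusted p = 0.000436). Its partner Tnip1 rose by 0.84, the initiator caspase Casp8 by 0.89, and Cflar, which restrains caspase-8, by 0.59 (edgeR adjusted p = 0.00483, 0.00822 and 0.0128). Ripk1, the kinase at the branch between survival and death, was the 1 gene of the list that was lower. Of 17 NF-kB subunits, inhibitors and kinases, 3 were higher and none lower, with a median of 0.27, a share close to the 14.2% of all genes that were higher. These were the kinase Ikbkb (1.39, edgeR adjusted p = 0.000999), Nfkb1 (0.69, edgeR adjusted p = 0.0242) and Rel (0.45, edgeR adjusted p = 0.0425).

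Of 18 genes of death execution and its brakes, 7 were higher and 2 lower, with a median of 0.33, beside 14.2% higher and 12.8% lower of all genes. Bid, which carries the signal of caspase-8 to mitochondria, was at 8.52 and 9.33 CPM after sham surgery and 31.4 and 37.5 CPM after BDL (log2 fold change 1.95, edgeR adjusted p = 0.000778). Apaf1, which forms the apoptosome, rose by 0.82 and the necroptosis kinase Ripk3 by 2.17 (edgeR adjusted p = 0.00763 and 0.0082), the last from under 1 CPM after sham surgery. The 2 lower genes were Mcl1, a brake on apoptosis, and Bcl2l11 (BIM), which promotes it. Of 12 genes for shedding and processing, 11 were tested, 4 were higher and 1 lower, with a median of 0.41, read against the same shares of all genes. Adam10, a membrane sheddase, rose by 0.66, and Rhbdf1 and Rhbdf2, the cofactors of the TNF-shedding enzyme, rose by 0.61 and 0.48 (edgeR adjusted p = 0.0166, 0.0152 and 0.023). Pcsk5, a proprotein convertase, fell by 1.49 (edgeR adjusted p = 0.00212). Counts in these lists depended on the libraries and changed when a library was left out. The number called over all genes changed as well, so these changes are no result about the lists.

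**Figure D4:**
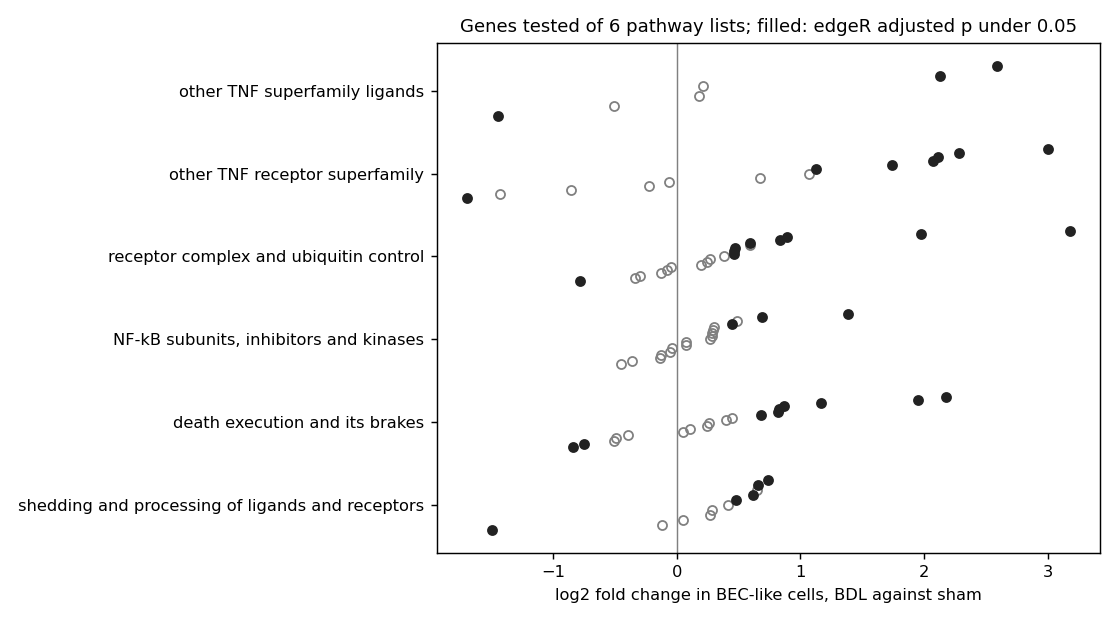
Log2 fold change in BEC-like cells, BDL against sham, of the genes tested in each of 6 pathway lists, with 1 point per gene and filled points for an edgeR adjusted p under 0.05. Filled points lie on both sides of 0, with 6 to the right and 1 to the left among the other receptors and 8 and 1 in the receptor complex list.

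The levels of a member can be set side by side between classes as CPM of the total, over the 4 libraries and with no test. Tnfrsf12a was at 225 to 361 CPM in BEC-like, 46.7 to 84.5 CPM in mesenchymal-like and 17.2 to 64.0 CPM in endothelial-like sums, so the BEC-like values lay above those of both other classes named here in every library. Tnfrsf1a had the opposite order, at 26.6 to 44.7 CPM in BEC-like, 101 to 136 CPM in mesenchymal-like and 103 to 168 CPM in endothelial-like sums. The ranges of the last pair overlapped. The endothelial-like value was the higher one of that pair in each library, on 8 to 22 UMIs and with overlapping counting intervals. Tnfsf12 was at 4.37 to 8.50 CPM in BEC-like and 11.7 to 32.5 CPM in mesenchymal-like sums, which did not overlap. Fas was at 14.6 to 17.2 CPM in BEC-like, 14.1 to 50.6 CPM in mesenchymal-like and 51.7 to 68.8 CPM in endothelial-like sums, the last on 3 to 10 UMIs per library. Its counting interval in the endothelial-like sum of BDL replicate 1 (10.7 to 151 CPM) held that of the mesenchymal-like sum (33.1 to 74.2 CPM). The ranges of Ltbr overlapped between all 3 classes, at 23.8 to 31.0 CPM, 29.1 to 44.3 CPM and 27.5 to 86.1 CPM. Within each library the BEC-like value was the lowest of the 3, though most counting intervals overlapped. The endothelial-like values rested on 4 to 8 UMIs.

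Across the 12 sums of 3 classes and 4 libraries, the gene whose log2(CPM + 1) ran most like each of the 8 members with a mean of at least 20 CPM (not Tnfsf12) was found among 6734 genes, as a description only, since the sums share libraries and depth. For Tnfrsf1b it was the chemokine Cx3cl1 (Pearson r = 0.967), for Tnfrsf10b Ceacam1 (r = 0.968), for Tnfsf10 Shroom2 (r = 0.9496) and for Tnf Stk25 (r = 0.928). Tnfrsf12a ran most like Wwox, Cp and Adk (r = 0.974, 0.971 and 0.970), and Tnfrsf1a like Msrb3 (r = 0.988). For Fas it was Renbp and for Ltbr Rpa1 (r = 0.942 each).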

How the data were processed

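Fixed cells of the 4 preparations received split-pool barcodes with the Evercode kit of Parse Biosciences, using random hexamer and oligo(dT) primers, per the labels' protocols. The deposited matrices hold UMI counts per cell and gene, not normalized, made by the authors on the reference mm39refseq, per the file headers, with the build GRCm39 given in the submitters' processing notes. The aligner, the cell threshold, doublet removal and the strand of counting are not given in the sources used here. UMI sums matched the authors' cell table in every cell, no barcode was shared between libraries, and there were 2.19 to 2.23 reads per UMI.

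Of 12211 cells, 7 with under 500 UMIs and 10 with over 20% mitochondrial UMIs were left out. Scrublet marked 11 (0.0902%), so few that it was not taken to have worked, and they were removed, leaving 12183. Cells were clustered on 2000 variable genes, 30 principal components and 20 neighbours (scanpy 1.11.5, Leiden resolution 1), which gave 19 clusters. A cluster was named from at least 3 markers, each in at least 5% of its cells and more than 2-fold over the cells compared, and for a non-biliary name at least 50% of the list. That scoring rule was set after the clusters were seen. The members, the pathway lists and the tests were chosen with earlier results of these data known.

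Counts were summed per class and library and fitted with edgeR 4.0.16 (R 4.3.3, TMM, its default filter on low counts, Benjamini-Hochberg threshold 0.05) where every library had at least 15 cells. The difference between classes was an interaction term with the library as a block. DESeq2 1.42.0, other scalings, filters, clusterings and cell filters, each library left out, each sublibrary alone and shares thinned to 2000 UMIs were tried as alternatives. All 9 members are named whatever their values, and of each list up to 4 genes with the smallest adjusted p under 0.05; Ripk1, Mcl1, Bcl2l11 and Tnfrsf22 were named after their values were seen. One item that this rule would name is not reported here. Shares were tested by an exact permutation test, and Poisson intervals are at 95% and cover counting error only. In simulated data for BEC-like cells, 100 genes were changed by 1 on the log2 scale and 100 by 2. The simulated spread between libraries, as a coefficient of variation, was 0.2. The fit recovered 29% and 89% of these genes, with those not tested counted as missed, and made 7 false calls of 15815. The real fit had a coefficient of 0.166 and called 27% of genes, so these rates were not measured at its settings.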

Additional observations from a re-analysis of the deposited data

Results flagged for a closer look

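The BDL effect on Tnfrsf1b differed between the 2 classes in the test of the difference itself, which is why it is listed here. The log2 fold change was 2.21 in BEC-like cells and 0.90 in mesenchymal-like cells, and their difference was 1.31657 (SE 0.31, edgeR adjusted p = 0.0113). Both BDL libraries were above both sham libraries in each class, but the mesenchymal-like change did not pass (edgeR adjusted p = 0.0914), and the groups overlapped in mesenchymal-like cluster 9, at 66.3 and 85.2 CPM against 129 and 76.6 CPM. The call of the difference was lost without sham replicate 1, sham replicate 2 or BDL replicate 2 (edgeR adjusted p = 0.0878, 0.0798 and 0.236). The makeup of the mesenchymal-like class moved with the groups, with 56.4% and 75.5% of its cells in cluster 9 after sham surgery and 38.0% and 16.7% after BDL, and its part in the difference was not tested.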

How the results depend on the processing

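No paired analysis was possible because replicate numbers are missing from the labels, and the numbers used here follow sample order. Tnf, Tnfrsf1b, Tnfrsf10b and Tnfsf10 in BEC-like cells passed under all 11 processing alternatives and all 4 fits that leave out a library, with log2 fold changes of 2.45 to 3.02, 1.92 to 2.56, 1.30 to 1.83 and 1.44 to 1.84; Tnfrsf10b alone missed in sublibrary 1 (1.88, edgeR adjusted p = 0.0527). Tnfrsf12a also lost its call with RLE size factors (adjusted p = 0.0522), totals only (0.0875) and no filter (0.16), and passed in 7 of 11. Tnfrsf1a passed without the filter (0.58, adjusted p = 0.00629).

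The number of genes called in BEC-like cells, 4337, was 1551 to 6245 with a library left out (1551 without sham replicate 1 and likewise without sham replicate 2) and 589, 2345, 1873, 2138, 2025, 1967, 2248 and 1849 in sublibraries 1 to 8 alone, whose sums hold fewer cells. In mesenchymal-like cells (568) it was 339 with DESeq2, 375 with totals only, 1067 without the filter, 331 after thinning and 160 to 1285 with a library left out (160 without sham replicate 1, 294 without BDL replicate 2 and 1285 without BDL replicate 1). In endothelial-like cells (31) it was 52 without the filter, 11 after thinning, 49 with the highest 5% of doublet scores removed, 1 to 48 with a library left out (1 without BDL replicate 1, 14 without sham replicate 2 and 48 without BDL replicate 2) and 0 at 10 CPM in 2 libraries, where edgeR gave 910 of 8840 at an unadjusted p under 0.05. DESeq2, run without that filter on 14351 genes, called 27. Totals only moved the endothelial-like median to 0.27 from 0.02 and the share of higher calls to 59.1% from 41.9%. The difference between classes gave 501 to 1044 calls (904) with a library left out, with 501 without sham replicate 2 and 561 without BDL replicate 2.

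With a library left out, the counts higher and lower were 1 to 2 and 1 for other ligands, 2 to 7 and 1 to 2 for other receptors, 2 to 9 and 0 to 1 for the receptor complex, 1 to 5 and 0 to 1 for NF-kB, 2 to 8 and 0 to 3 for death execution, and 0 to 5 higher for shedding. The genes tested in these fits numbered 17355 and 17519 without sham replicate 1 and 2, and 16378 and 16404 without BDL replicate 1 and 2. The number called over all genes changed in the same fits, each of which has 1 library in a group. These list counts are therefore no result about the lists. Without thinning the share difference turned to 20.3 points for Tnfrsf12a (from -6.80) and 0.94 points for Tnfsf12 (from -0.39).

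Values that had not passed the test changed sign in these cases; the cause was not tested. In BEC-like cells these were Tnfrsf1a in sublibrary 1 (-0.29), Fas in sublibraries 4 and 8 (-0.17 and -0.0618) and Ltbr in sublibraries 5, 7 and 8 (-0.00519, -0.0810 and -0.0598). In mesenchymal-like cells, Tnfsf12 was 0.0383 with totals only, 0.0573 without the filter, 0.0830 after thinning, and -0.99 to 0.40 with a library left out; Ltbr was -0.0315 after thinning and -0.17 to 0.35 with a library left out. The difference between classes ranged with a library left out from -0.21 to 0.38 for Ltbr, -6.48 to 1.13 for Tnf, -0.22 to 0.50 for Tnfrsf12a and -1.10 to 0.34 for Tnfsf12.

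Depth limits the rarer classes: mesenchymal-like sums held 513495 to 1273311 UMIs and endothelial-like sums 58043 to 145278, against 8428675 or more in BEC-like cells.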

Other observations

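BEC-like cells with a UMI of the proliferation genes Mki67 or Top2a after thinning to 1000 UMIs are called cycling here. In these thinned cells Tnf was at 88.8 CPM (15 UMIs) in 169 cycling cells of BDL replicate 1 and 63.8 CPM (18 UMIs) in 282 of BDL replicate 2, against 59.9 and 47.8 CPM in the cells not called cycling. The counting intervals of cycling and other cells overlapped for Tnf in both of these libraries. Tnfrsf12a was at 260.4 and 305 CPM in cycling cells of BDL against 242 and 239 CPM, and the intervals overlapped. In sham livers it was at 333 CPM in cycling and 403 CPM in other cells of sham replicate 1 (17 UMIs in 51 cycling cells) and at 111 against 314 CPM in sham replicate 2 (4 UMIs in 36). The sham intervals overlapped in replicate 1 and not in replicate 2 (30.3 to 284 CPM against 293 to 337 CPM).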
